A study of Homo sapiens with 9 samples.

Results

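The sterol and fatty acid synthesis genes are 31 genes chosen by their function: 7 of the mevalonate arm, 11 of the steps from squalene to cholesterol, 5 that control SREBP, 2 of sterol transport and 6 of fatty acid synthesis. All 31 were found by symbol among the 62703 genes of the count table, and all 31 passed the filter on low counts, among 18267 genes tested. The choice used no measured value, although results of these data were known when it was made. RNA was sequenced from HK-2, a human proximal tubule line immortalised with papillomavirus genes, in 3 groups of 3 libraries. The untreated group (libraries 1, 2 and 3) received neither agent. The aristolochic acid group (libraries 1, 4 and 6) received 5 µg/ml of this plant nephrotoxin, which forms DNA adducts in tubule cells, for 48 h. The MYDGF group (libraries 1, 3 and 4) received the same aristolochic acid exposure and an adenovirus (GV314 vector) carrying MYDGF, a secreted growth factor. All 9 libraries shared 12 h of serum starvation and 5% serum. No control vector is stated for the other groups, so MYDGF and the vector cannot be told apart. No vehicle is stated for the untreated cells, so aristolochic acid and any solvent cannot be told apart either. The treatment labels of 2 untreated and 2 MYDGF libraries name HK-3 or HK-4, while the cell line entry of all 9 is HK-2. The labels do not state separate cultures for the libraries within a group, so a p-value here reflects library-to-library spread alone, possibly technical.

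Cholesterol is built from acetyl-CoA through mevalonate, isoprenoid diphosphates, squalene and lanosterol, and fatty acids are built from the same acetyl-CoA through malonyl-CoA. Transcription of most enzymes of both pathways is driven by the SREBP factors, which are carried from the endoplasmic reticulum by SCAP when membrane sterol is low and held there by the INSIG proteins when it is high. Proximal tubule cells make and take up cholesterol and burn fatty acids as a main fuel.

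Libraries held 10.9 to 14.3 counts in units of 1e6, and levels are given as CPM, counts per 1e6 counts of the library with TMM scaling. MYDGF read 122.8 to 130.7 CPM in untreated cells, 74.2 to 104.9 CPM with aristolochic acid and 510.2 to 662.9 CPM in the 3 libraries of the MYDGF group. Markers of simple epithelium, led by KRT8 and KRT18, summed to 1080.5 to 1121.4 CPM in untreated cells, 1576.0 to 1711.3 CPM with aristolochic acid and 1390.7 to 1414.0 CPM with MYDGF. CDH1 (E-cadherin), of the same list, moved opposite to that sum: it read 96.9 to 105.5 CPM untreated, 40.5 to 52.8 after aristolochic acid and 70.5 to 76.2 with MYDGF, falling with aristolochic acid (-1.13 ± 0.0969 SE, adjusted p = 1.94e-05) and being higher with MYDGF than without it (0.64 ± 0.0966 SE, adjusted p = 0.00234). The 10 proximal tubule markers summed to 12.8 to 13.7, 28.3 to 48.3 and 20.9 to 24.1 CPM in the same order, and SLC22A6 and SLC22A8, the organic anion transporters of that segment, had no counts in any library. Sums of markers of other cell types also moved with the groups at low levels: endothelium (5 genes) 1.29 to 1.43, 7.85 to 13.8 and 3.83 to 4.31 CPM, and leukocytes (5 genes) 2.85 to 4.01, 13.7 to 16.2 and 6.01 to 9.27 CPM, with CD3E at 0 in every library. Hepatocyte markers (5 genes) summed to 5.39 to 8.47, 12.5 to 15.4 and 8.96 to 10.6 CPM, and adipocyte markers (5 genes) to 1.26 to 2.38, 4.78 to 6.95 and 2.58 to 3.06 CPM. Their part in the results below was not tested. In a bulk library, fewer cells of a type and less RNA per cell cannot be told apart.

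Most of the 31 genes were lower with aristolochic acid than in untreated cells. A change was called at an adjusted p under 0.05 (edgeR quasi-likelihood test, Benjamini-Hochberg over all 18267 genes): 25 of the 31 fell, 1 rose and 5 were not called, against 29.3% of all genes tested called lower and 29.7% called higher. The median log2 fold change of the members was -0.76, against -0.01 over all genes tested and -0.06 over protein-coding genes. Among the 9802 genes at or above the lowest member's mean level (13.6 CPM), 32.8% were called lower. With MYDGF as well as aristolochic acid, 9 of the 31 were higher than with aristolochic acid alone and none was lower, against 14.7% of all genes called higher and 14.7% called lower (18.7% and 13.3% among the 9802 genes at the members' level), and the median was 0.24 against 0.01 over all genes. For those 0 lower calls, 0 of the 31 were also lower by DESeq2, and 0 of the 31 had an unadjusted p under 0.05 and a value below 0. These 2 comparisons share the aristolochic acid libraries. Against untreated cells, the MYDGF group was lower for 21 of the 31 and higher for 1, against 24.3% of all genes called lower and 26.8% called higher, with a member median of -0.49. Counts by role below are to be read against these shares over all genes.

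**Figure D1:**
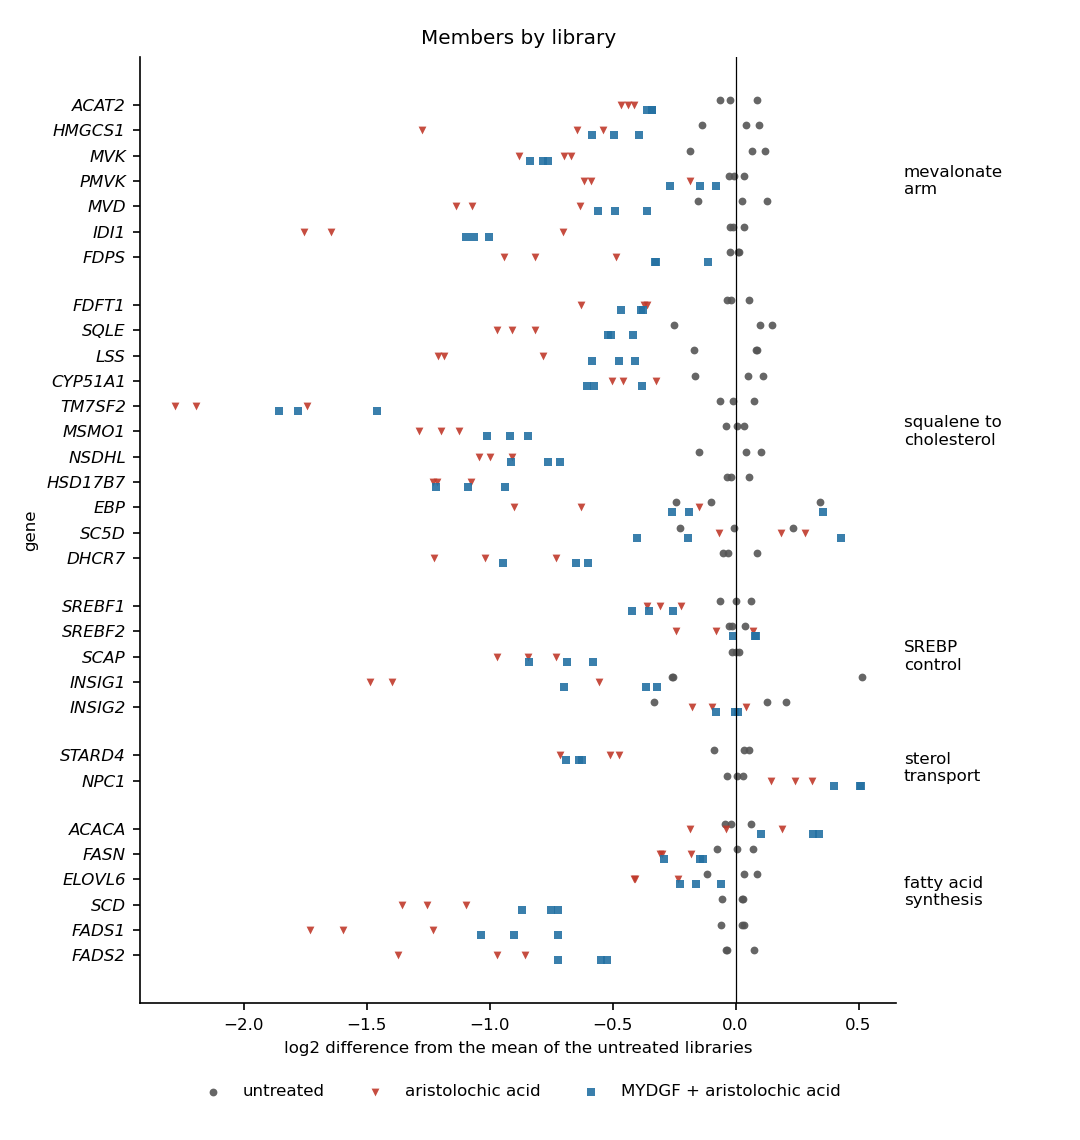
Each point is 1 library: the log2 difference (x axis) of a gene (y axis, grouped by role) from the mean of the 3 untreated libraries, with grey circles for untreated, red triangles for aristolochic acid and blue squares for MYDGF with aristolochic acid. The member medians of the 3 aristolochic acid libraries are -0.55, -0.91 and -0.81, and those of the MYDGF libraries -0.42, -0.47 and -0.51.

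Promoter windows from RefSeq (GRCh38.p14, 250 bases before to 50 after the start) were matched for 27 of the 31 genes (36 windows), and 6 are shown as examples of 3 kinds of response: MVD, MSMO1 and SCD fell with aristolochic acid and were higher with MYDGF, INSIG1 fell, and SREBF2 and INSIG2 were not called in any comparison. Capitals mark the box CCAAT on either strand (ATTGG on the other), bound by NF-Y, a known partner of SREBP, and in SREBF2 also the sterol regulatory element core, written TCACNCCAC. Windows are printed 5′ to 3′ on the strand of the gene.
MVD, chr16:88663042-88663341, minus strand: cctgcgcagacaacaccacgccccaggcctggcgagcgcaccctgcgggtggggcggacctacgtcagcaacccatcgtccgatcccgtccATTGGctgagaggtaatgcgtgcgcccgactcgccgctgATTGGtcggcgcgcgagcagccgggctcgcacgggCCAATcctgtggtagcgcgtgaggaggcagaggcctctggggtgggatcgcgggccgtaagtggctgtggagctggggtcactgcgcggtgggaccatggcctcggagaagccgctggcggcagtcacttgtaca
MSMO1, chr4:165327419-165327718, plus strand: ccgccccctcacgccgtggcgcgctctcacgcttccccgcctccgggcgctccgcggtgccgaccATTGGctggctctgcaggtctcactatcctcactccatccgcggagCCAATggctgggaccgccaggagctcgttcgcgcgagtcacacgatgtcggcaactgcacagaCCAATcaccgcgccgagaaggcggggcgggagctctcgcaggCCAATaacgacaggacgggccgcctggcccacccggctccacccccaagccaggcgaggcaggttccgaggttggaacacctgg
SCD, chr10:100346983-100347282, plus strand: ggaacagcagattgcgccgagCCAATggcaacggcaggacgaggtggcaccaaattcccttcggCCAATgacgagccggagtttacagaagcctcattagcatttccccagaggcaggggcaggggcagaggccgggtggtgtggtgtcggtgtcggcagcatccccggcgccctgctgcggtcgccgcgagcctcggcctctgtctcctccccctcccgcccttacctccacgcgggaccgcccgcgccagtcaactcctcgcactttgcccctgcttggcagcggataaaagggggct
INSIG1, chr7:155297628-155297927, plus strand: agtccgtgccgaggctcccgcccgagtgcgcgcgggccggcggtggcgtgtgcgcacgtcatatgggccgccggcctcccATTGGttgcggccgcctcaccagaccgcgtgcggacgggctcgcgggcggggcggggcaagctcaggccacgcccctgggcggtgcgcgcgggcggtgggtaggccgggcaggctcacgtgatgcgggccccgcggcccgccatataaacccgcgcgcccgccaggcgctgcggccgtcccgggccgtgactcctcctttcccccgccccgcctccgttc
SREBF2, chr22:41832855-41833154, plus strand: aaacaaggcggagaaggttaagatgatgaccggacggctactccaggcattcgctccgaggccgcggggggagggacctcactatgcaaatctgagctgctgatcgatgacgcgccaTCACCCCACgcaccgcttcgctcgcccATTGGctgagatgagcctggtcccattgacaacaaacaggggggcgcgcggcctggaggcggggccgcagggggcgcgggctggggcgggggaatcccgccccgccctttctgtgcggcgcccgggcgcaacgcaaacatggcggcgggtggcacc
INSIG2, chr2:118088221-118088520, plus strand: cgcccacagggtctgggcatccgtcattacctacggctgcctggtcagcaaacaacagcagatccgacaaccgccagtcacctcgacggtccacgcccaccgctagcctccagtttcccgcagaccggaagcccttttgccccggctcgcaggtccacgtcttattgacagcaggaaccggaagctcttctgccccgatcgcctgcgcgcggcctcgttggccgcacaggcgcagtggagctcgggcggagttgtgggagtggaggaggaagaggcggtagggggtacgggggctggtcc

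The box CCAAT (either strand) was in a window of 19 of the 27 genes (70.4%), against 42.3% of the 11942 tested genes with a window. It lay in MVD 3 times, in MSMO1 4 times, in SCD 2 times, in INSIG1 and SREBF2 1 time each, and in neither window of INSIG2. Among genes not printed, FADS1, which fell and was higher with MYDGF, and SCAP, which fell, had no box. EBP, not called in any comparison, had 3. The core TCACNCCAC (either strand) was in 1 of 27 (3.7%), SREBF2, as TCACCCCAC at base -133 (chr22:41832972-41832980), against 1.47% of tested genes. The Sp1 box GGGCGG (either strand) was in 26 of 27 (96.3%) against 75.0%, and the E-box CACGTG in 4 of 27 (14.8%) against 12.2%. None of the 4 motifs contains another. Of the 19 genes with a CCAAT box, 15 fell with aristolochic acid (median -0.98) and 6 were higher with MYDGF than without (median 0.28). Of the 8 genes without one, 6 fell and 1 rose with aristolochic acid (median -0.39) and 2 were higher with MYDGF (median 0.18). Most genes thus fell both with and without the box. Over all genes tested, 29.3% were called lower with aristolochic acid and 14.7% higher with MYDGF, and these shares were not split by box. The difference between members with and without a box was not tested, and a match is a run of letters, not a bound site.

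With no strand setting stated in the labels, reads of overlapping genes cannot be told apart. Of the 31 genes, 20 overlap another gene listed in the count table, although the genes overlapping LSS, SCAP and ELOVL6 had no counts. For 7 of the 31 an overlapping gene exceeds 10% of the member's level, so their values are uncertain: ACAT2 with TCP1, MVK with MMAB, TM7SF2 with VPS51, SREBF1 with RAI1, NPC1 with RMC1, FADS1 with FADS2, and FADS2 with FADS1 and FEN1. VPS51, on the same strand as TM7SF2, averaged 65.6 CPM in untreated cells, 52.7 with the toxin alone and 49.0 with MYDGF, and FEN1, on the same strand as FADS2, averaged 163.6, 210.3 and 251.0 CPM. RAI1, opposite SREBF1, averaged 48.3, 26.2 and 48.9 CPM. In the same order, TCP1, opposite ACAT2, averaged 174.2, 137.1 and 202.1 CPM, and MMAB, opposite MVK, 31.9, 18.6 and 21.5. RMC1, opposite NPC1, averaged 31.2, 27.2 and 28.3 CPM. Copies of the genes could also split reads. By symbol alone (a member's symbol followed by P and a number), the table lists 18 copies of 5 of the members (CYP51A1, FDPS, HSD17B7, IDI1 and SCD). Their likeness in sequence was not measured. Of the copies, 3 exceed 2% of the member's level, the highest being CYP51A1P2 at 3.65%.

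In the mevalonate arm, which carries acetyl-CoA to farnesyl diphosphate, all 7 genes fell with aristolochic acid (median -0.76). The largest change was in IDI1 (ENSG00000067064, chr10:1039152-1049119), the isomerase of isopentenyl diphosphate. IDI1 read 111.6, 110.8 and 115.1 CPM in the untreated libraries, 68.9, 33.0 and 35.6 in those given aristolochic acid alone, and 53.5, 55.8 and 52.4 in the MYDGF group. Both treated groups lay below every untreated library, and aristolochic acid library 1 lay far above the other two of its group. The log2 fold change was -1.29 ± 0.236 (SE, adjusted p = 0.00119). Cytosolic HMG-CoA synthase, HMGCS1 (ENSG00000112972, chr5:43287470-43313512), showed its lowest value in aristolochic acid library 4, with 251.8, 214.7 and 242.9 CPM untreated, 162.3, 97.2 and 150.6 after aristolochic acid and 167.2, 157.1 and 179.8 with MYDGF. Its log2 fold change was -0.79 ± 0.166 (SE, adjusted p = 0.00263).

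Of these 7 genes, 2 were higher with MYDGF than with aristolochic acid alone: the mevalonate diphosphate decarboxylase MVD and the farnesyl diphosphate synthase FDPS. FDPS (ENSG00000160752, chr1:155308748-155320666) read 268.3, 261.5 and 267.4 CPM untreated, 189.6, 138.1 and 150.8 after aristolochic acid and 211.9, 245.5 and 212.0 with MYDGF, so that the 3 groups did not overlap. Its log2 fold change was -0.74 ± 0.112 (SE, adjusted p = 0.000426) with aristolochic acid and 0.48 ± 0.112 (SE, adjusted p = 0.0121) for MYDGF against aristolochic acid, and against untreated cells it was -0.25 with an adjusted p of 0.0854. MVD (ENSG00000167508, chr16:88651935-88663161) read 58.1, 54.0 and 47.7 CPM untreated, 34.1, 23.9 and 25.0 after aristolochic acid and 37.7, 41.2 and 35.9 with MYDGF, and the MYDGF libraries lay above the aristolochic acid libraries by a small margin. Its values were -0.95 ± 0.141 (SE, adjusted p = 0.000379) and 0.47 ± 0.141 (SE, adjusted p = 0.0344). The second call was lost in 8 of the 14 settings without a replicate block, with adjusted p from 0.0508 to 0.121: with no filter on low counts, with the fit to the 6 libraries compared, and without untreated library 2, aristolochic acid library 4 or 6, or MYDGF library 1, 3 or 4. Mevalonate kinase MVK (ENSG00000110921, chr12:109573255-109598125) read 22.0, 22.2 and 21.1 CPM with MYDGF, beside 23.3, 23.8 and 20.5 with aristolochic acid and 41.4, 39.9 and 33.5 untreated. Its log2 fold change was -0.76 with aristolochic acid and -0.05 ± 0.105 (SE, adjusted p = 0.754) between the treated groups.

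The smallest changes of the arm with aristolochic acid were in ACAT2 (ENSG00000120437, chr6:159762045-159779112), the thiolase of its first step, and in phosphomevalonate kinase PMVK (ENSG00000163344, chr1:154924740-154936719). ACAT2 read 158.7, 171.1 and 154.1 CPM untreated, 120.9, 116.7 and 118.9 after aristolochic acid and 127.2, 125.3 and 127.1 with MYDGF, with both treated groups below every untreated library and its MYDGF libraries all above those given aristolochic acid. Its log2 fold change was -0.44 ± 0.058 (SE, adjusted p = 0.000188) with aristolochic acid and 0.09 ± 0.058 (SE, adjusted p = 0.272) between the treated groups. PMVK read 34.9, 36.4 and 35.3 CPM untreated, 31.2, 23.5 and 23.0 after aristolochic acid and 29.5, 32.1 and 33.6 with MYDGF, with aristolochic acid library 1 inside the range of the MYDGF libraries. Its values were -0.46 ± 0.121 (SE, adjusted p = 0.00945) and 0.29 ± 0.121 (SE, adjusted p = 0.0976).

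**Figure D2:**
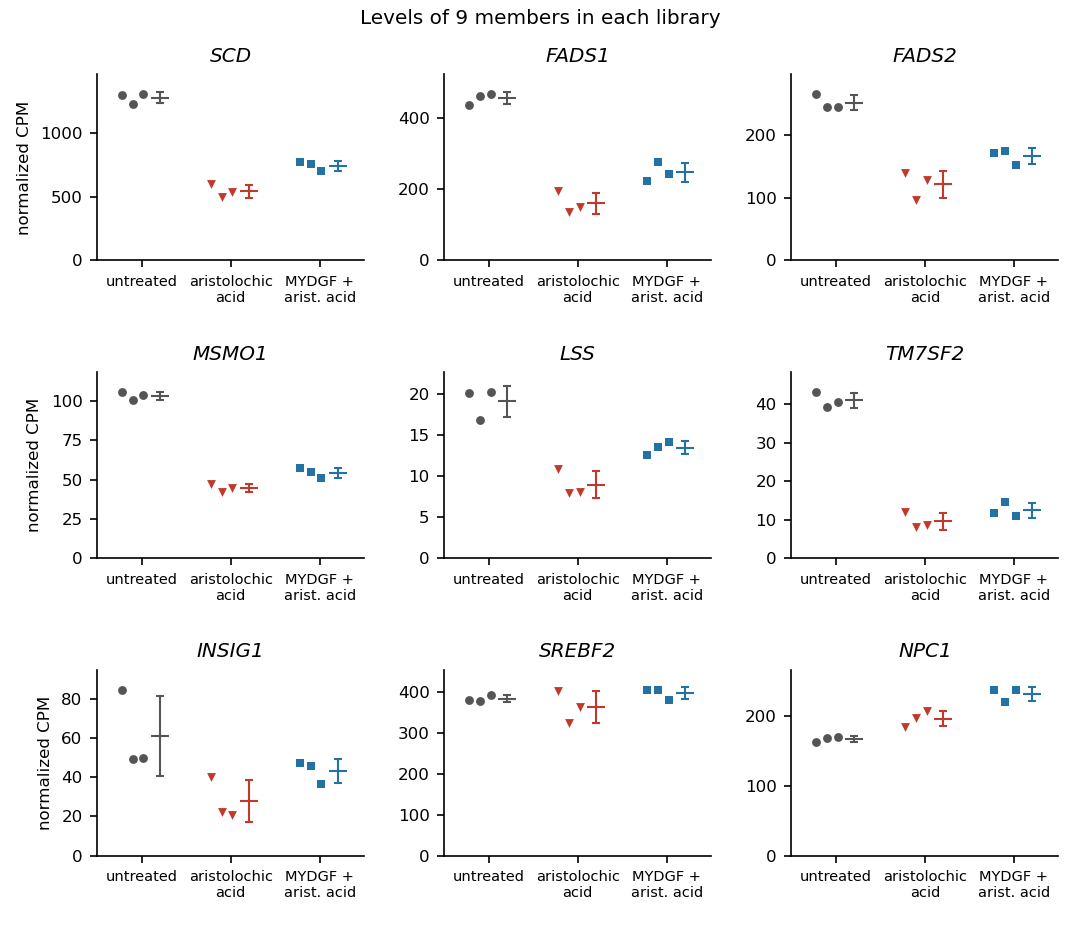
TMM-normalized CPM (y axis, from 0) of 9 genes in each library (points, by group on the x axis), with the mean and SD of the 3 libraries beside them. SCD, FADS1, FADS2, MSMO1 and LSS form 3 separate groups with the MYDGF libraries in between, SREBF2 overlaps across groups, and NPC1 rises from 162.4 to 169.9 CPM in untreated cells to 219.7 to 237.2 CPM with MYDGF.

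From squalene to cholesterol, 9 of 11 genes fell with aristolochic acid (median -0.98), and EBP and SC5D were not called. TM7SF2 (ENSG00000149809, chr11:65111845-65116384), a sterol reductase acting after lanosterol, changed most of all 31 genes, to 23.2% of its untreated mean. TM7SF2 read 43.2, 39.2 and 40.6 CPM untreated, 11.9, 8.04 and 8.55 after aristolochic acid and 11.6, 14.6 and 11.0 with MYDGF. The 2 treated groups overlapped each other and lay far below untreated cells. Its log2 fold change was -2.11 ± 0.167 (SE, adjusted p = 1.37e-05), and between the treated groups it was 0.38 ± 0.168 (SE, adjusted p = 0.118). The enzymes that together remove methyl groups from the sterol ring, MSMO1, NSDHL and HSD17B7, all fell, with log2 fold changes of -1.21, -1.0 and -1.21. The sterol oxidase MSMO1 (ENSG00000052802, chr4:165327667-165343164) read 105.9, 100.6 and 103.9 CPM untreated, 47.2, 42.0 and 44.8 after aristolochic acid and 57.4, 54.6 and 51.1 with MYDGF, with no overlap between groups, and was 0.28 ± 0.0722 (SE, adjusted p = 0.0182) higher with MYDGF. That call was lost without aristolochic acid library 4 or 6 or MYDGF library 1 or 3, with adjusted p from 0.0518 to 0.0733. HSD17B7 (ENSG00000132196, chr1:162790702-162812823) read 21.0, 22.4 and 21.3 CPM untreated, 8.91, 9.97 and 9.01 after aristolochic acid and 9.88, 11.0 and 8.97 with MYDGF, and its treated groups overlapped (0.10 ± 0.112 SE, adjusted p = 0.555). The dehydrogenase NSDHL (ENSG00000147383, chrX:152830967-152869729) read 39.9, 38.3 and 33.4 CPM untreated, 18.3, 19.5 and 17.8 after aristolochic acid and 22.4, 21.6 and 19.4 with MYDGF, also with overlap between the treated groups (0.19 ± 0.102 SE, adjusted p = 0.188).

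Squalene epoxidase SQLE and lanosterol synthase LSS, which act in turn to close the sterol ring, both fell with aristolochic acid and were both higher with MYDGF than without it. SQLE (ENSG00000104549, chr8:124998497-125022283) read 118.9, 114.7 and 90.0 CPM untreated, 54.3, 56.8 and 60.6 after aristolochic acid and 79.9, 74.6 and 75.1 with MYDGF, so the 3 groups were separate. Its log2 fold changes were -0.91 ± 0.105 (SE, adjusted p = 9.01e-05) and 0.42 ± 0.105 (SE, adjusted p = 0.0167). LSS (ENSG00000160285, chr21:46188141-46228824), the lowest of the 31 per length in untreated cells (1.18 FPKM), read 20.2, 16.9 and 20.3 CPM untreated, 10.9, 7.96 and 8.09 after aristolochic acid and 12.6, 13.6 and 14.2 with MYDGF, with aristolochic acid library 1 again the highest of its group. Its log2 fold changes were -1.09 ± 0.146 (SE, adjusted p = 0.000205) and 0.58 ± 0.147 (SE, adjusted p = 0.0169). The second call was lost without aristolochic acid library 4 or 6 or MYDGF library 4, with adjusted p from 0.0571 to 0.0649, and that for SQLE without MYDGF library 1 (adjusted p = 0.0544).

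Squalene synthase FDFT1 and lanosterol demethylase CYP51A1 fell with aristolochic acid and were not called between the treated groups. FDFT1 (ENSG00000079459, chr8:11795573-11839304), the first enzyme committed to sterols, read 95.5, 101.9 and 96.7 CPM untreated, 76.2, 63.2 and 75.6 after aristolochic acid and 75.0, 70.8 and 75.5 with MYDGF, with log2 fold changes of -0.45 ± 0.0824 (SE, adjusted p = 0.00119) and 0.04 ± 0.0824 (SE, adjusted p = 0.739). CYP51A1 (ENSG00000001630, chr7:92084987-92134803) read 218.9, 180.7 and 209.8 CPM untreated, 161.9, 147.2 and 142.7 after aristolochic acid and 155.3, 133.0 and 135.6 with MYDGF, with log2 fold changes of -0.43 ± 0.0933 (SE, adjusted p = 0.00311) and -0.09 ± 0.0933 (SE, adjusted p = 0.496). The treated groups of both genes overlapped.

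The last steps of the pathway did not share 1 pattern. DHCR7 (ENSG00000172893, chr11:71428193-71452868), the reductase that yields cholesterol, read 155.0, 152.8 and 168.3 CPM untreated, 95.2, 67.4 and 78.1 after aristolochic acid and 82.2, 104.3 and 101.1 with MYDGF. It fell with aristolochic acid (-0.98 ± 0.132 SE, adjusted p = 0.000211) and its value between the treated groups was 0.26 ± 0.132 (SE, adjusted p = 0.172). The isomerase EBP (ENSG00000147155, chrX:48521799-48528716) read 42.5, 28.1 and 31.1 CPM untreated, 21.4, 17.6 and 30.1 after aristolochic acid and 42.8, 27.8 and 29.2 with MYDGF, with 1 high library in each group, and its log2 fold changes were -0.56 ± 0.243 (SE, adjusted p = 0.0729) and 0.53 ± 0.243 (SE, adjusted p = 0.127). EBP was called lower with aristolochic acid once library 6 of that group was left out (-0.78, adjusted p = 0.0276). The desaturase SC5D (ENSG00000109929, chr11:121292681-121313410) overlapped across all groups, with 92.8, 67.3 and 78.5 CPM untreated, 75.3, 96.1 and 89.6 after aristolochic acid and 106.2, 68.9 and 59.6 with MYDGF, and its log2 fold change with aristolochic acid was 0.13 ± 0.208 (SE, adjusted p = 0.613).

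Among the 5 genes that control SREBP, 3 fell with aristolochic acid (median -0.3) and none was called between the treated groups. With 14.7% of all genes called in each direction there, 0 calls among 5 genes say little about this group. The escort protein SCAP (ENSG00000114650, chr3:47413681-47477126) read 105.7, 103.6 and 104.9 CPM untreated, 62.9, 53.2 and 58.2 after aristolochic acid and 58.4, 69.9 and 65.0 with MYDGF. Both treated groups lay well below untreated cells (-0.85 ± 0.0863 SE, adjusted p = 4.57e-05 with aristolochic acid), and overlapped each other (0.15 ± 0.0862 SE, adjusted p = 0.227). INSIG1 (ENSG00000186480, chr7:155297776-155310235), which retains SCAP in the endoplasmic reticulum and is itself an SREBP target, had the largest standard error of the 31 in both comparisons, with 84.7, 49.3 and 49.6 CPM untreated, 40.2, 22.2 and 20.8 after aristolochic acid and 47.3, 45.8 and 36.3 with MYDGF. Untreated library 1 was high beside its group, as was aristolochic acid library 1. INSIG1 fell with aristolochic acid (-1.14 ± 0.288 SE, adjusted p = 0.00723), and the value for MYDGF against aristolochic acid was 0.64 ± 0.288 (SE, adjusted p = 0.125). Without aristolochic acid library 1 that value was 1.0 (adjusted p = 0.0168).

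Of the genes of the factors themselves, SREBF1 fell with aristolochic acid and SREBF2 was not called. SREBF1 (ENSG00000072310, chr17:17810399-17837002), which encodes the form that mainly drives fatty acid synthesis, fell to 81.3% of untreated cells (-0.30 ± 0.073 SE, adjusted p = 0.00603), with 77.3, 74.2 and 71.0 CPM untreated, 59.8, 57.6 and 63.6 after aristolochic acid and 55.2, 62.1 and 58.0 with MYDGF. SREBF2 (ENSG00000198911, chr22:41833079-41907307), which encodes the form that mainly drives sterol synthesis, read 380.6, 377.5 and 394.3 CPM untreated, 403.1, 324.5 and 363.7 after aristolochic acid and 406.5, 406.0 and 381.3 with MYDGF. Its groups overlapped, and its log2 fold change with aristolochic acid was -0.08 ± 0.0759 (SE, adjusted p = 0.396). INSIG2 (ENSG00000125629, chr2:118088452-118110997), the second INSIG gene, also overlapped between groups, with a log2 fold change of -0.09 ± 0.135 (SE, adjusted p = 0.57) against the -1.14 of INSIG1; the difference between the 2 genes was not tested.

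**Figure D3:**
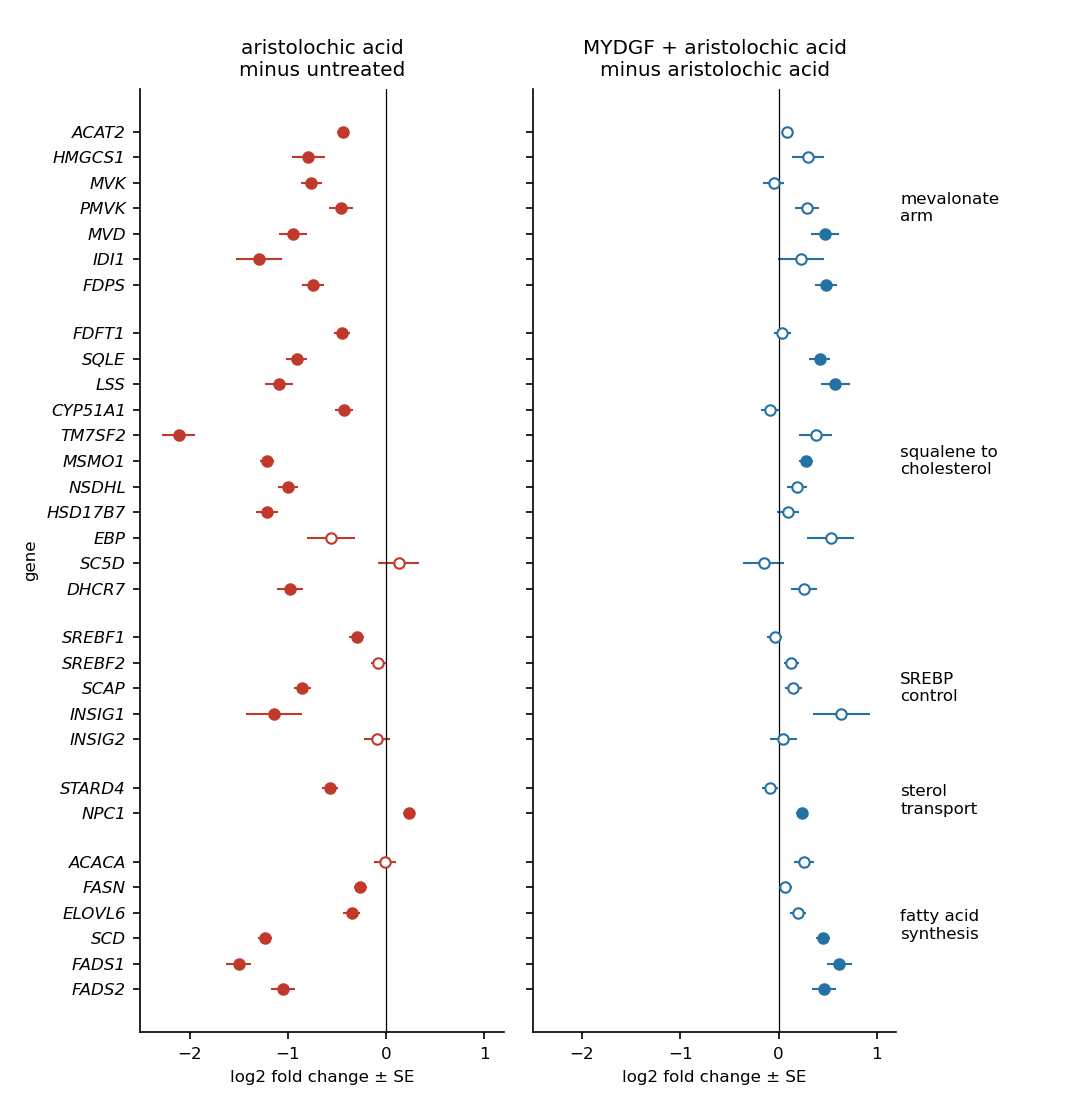
Log2 fold change ± SE (x axis) of each of the 31 genes (y axis, by role) for aristolochic acid minus untreated (left) and MYDGF with aristolochic acid minus aristolochic acid (right), with filled points for an adjusted p under 0.05. On the left 25 filled points lie below 0 and NPC1 above it, and on the right the 9 filled points all lie above 0.

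The 2 sterol transport genes went in opposite directions. STARD4 (ENSG00000164211, chr5:111496033-111512590), a carrier of cholesterol in the cytosol, read 84.8, 85.8 and 77.8 CPM untreated, 57.9, 59.4 and 50.3 after aristolochic acid and 51.2, 53.5 and 53.0 with MYDGF. It fell with aristolochic acid (-0.57 ± 0.0797 SE, adjusted p = 0.000271), with a value of -0.09 between the treated groups. NPC1 (ENSG00000141458, chr18:23506184-23586506), which exports cholesterol from lysosomes, was the 1 gene of the 31 that rose, with 162.4, 167.3 and 169.9 CPM untreated, 184.0, 196.7 and 206.4 after aristolochic acid and 237.2, 219.7 and 236.6 with MYDGF. The 3 groups did not overlap. NPC1 rose by 0.23 ± 0.0617 (SE, adjusted p = 0.00923) with aristolochic acid and by a further 0.24 ± 0.0616 (SE, adjusted p = 0.0183) with MYDGF, so that the MYDGF group stood at 139% of untreated cells. The second step was lost without MYDGF library 1 or 4 (adjusted p = 0.0641 and 0.0714).

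In fatty acid synthesis, 5 of 6 genes fell with aristolochic acid (median -0.7), and the 3 desaturases among them were the 3 that were higher with MYDGF. SCD (ENSG00000099194, chr10:100347233-100364826), which makes monounsaturated fatty acids, was by far the highest of the 31 genes per length (241 ± 7.21 FPKM in untreated cells, against 48.2 ± 2.78 for ACAT2, the next). SCD read 1297.1, 1229.3 and 1302.5 CPM untreated, 597.3, 497.7 and 533.9 after aristolochic acid and 772.6, 758.3 and 699.1 with MYDGF, and the 3 groups were far apart. It fell to 42.5% of untreated cells (-1.23 ± 0.0721 SE, adjusted p = 4.6e-06) and stood at 58.2% with MYDGF (0.45 ± 0.0713 SE, adjusted p = 0.00271 against aristolochic acid). FADS1 (ENSG00000149485, chr11:61799627-61829318), a desaturase of polyunsaturated fatty acids, read 436.2, 462.9 and 466.2 CPM untreated, 193.8, 136.9 and 150.3 after aristolochic acid and 221.6, 275.4 and 243.3 with MYDGF, again with 3 separate groups. It fell to 35.2% of untreated cells (-1.50 ± 0.128 SE, adjusted p = 1.87e-05) and stood at 54.2% with MYDGF (0.62 ± 0.126 SE, adjusted p = 0.00707 against aristolochic acid). FADS2 (ENSG00000134824, chr11:61792980-61867354), which acts before FADS1 in the same chain, read 265.3, 245.8 and 244.7 CPM untreated, 138.9, 96.9 and 128.2 after aristolochic acid and 172.2, 175.1 and 152.3 with MYDGF, likewise with no overlap. Its values were -1.05 ± 0.123 (SE, adjusted p = 9.64e-05) and 0.46 ± 0.122 (SE, adjusted p = 0.0216). The second call was lost without MYDGF library 1 or 3 (adjusted p = 0.0676 and 0.0711).

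The enzymes that build the saturated chain had log2 values nearer to 0 than those of the desaturases, a difference that was not tested. FASN (ENSG00000169710, chr17:82078338-82098294), which makes palmitate, read 486.2, 465.3 and 439.7 CPM untreated, 374.1, 376.8 and 408.8 after aristolochic acid and 419.5, 378.2 and 422.6 with MYDGF. It fell to 83.4% (-0.26 ± 0.0654 SE, adjusted p = 0.00675). ELOVL6 (ENSG00000170522, chr4:110045846-110199199), which lengthens palmitate, fell to 78.2% (-0.35 ± 0.0844 SE, adjusted p = 0.00527), with 82.2, 85.1 and 73.9 CPM in the untreated libraries, 60.1, 60.3 and 68.2 in those given aristolochic acid and 77.0, 71.7 and 68.6 in the MYDGF group. The carboxylase ACACA (ENSG00000278540, chr17:37084992-37406836), which supplies malonyl-CoA, overlapped between untreated and aristolochic acid cells, with 47.9, 51.5 and 48.6 CPM untreated, 56.2, 43.3 and 48.0 after aristolochic acid and 62.6, 53.1 and 61.5 with MYDGF. Its log2 fold change was -0.01 ± 0.107 (SE, adjusted p = 0.969), and it was 0.26 ± 0.106 (SE, adjusted p = 0.0673) for the MYDGF group against untreated cells, where every MYDGF library was above every untreated one. That difference was called with the fit to the 6 libraries compared and without aristolochic acid library 1 or 4 or MYDGF library 3 (adjusted p from 0.026 to 0.0417).

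Of the 9 genes higher with MYDGF than with aristolochic acid alone, 8 had fallen with aristolochic acid, and NPC1 had risen. Of those 8, 7 were still lower than in untreated cells: MVD, SQLE, LSS, MSMO1, SCD, FADS1 and FADS2, at 52.5 to 71.8% of the untreated mean, with log2 values of -0.48, -0.49, -0.51, -0.93, -0.78, -0.88 and -0.60. FDPS, at 84%, was the one not called, although it was called lower without aristolochic acid library 1 (-0.24, adjusted p = 0.0212) and in the fit to the 6 libraries compared (adjusted p = 0.0181). The lower call against untreated cells was lost for MVD without untreated library 1 or MYDGF library 1 or 4 (adjusted p from 0.0563 to 0.0737) and for LSS without untreated library 3 or MYDGF library 1 (adjusted p = 0.0618 and 0.0623). The same call was lost for HMGCS1 without untreated library 1 or 3 or any 1 MYDGF library (adjusted p from 0.0624 to 0.108). For FASN it was lost in 8 of the 14 settings without a replicate block: with no filter, and without untreated library 1 or 2, aristolochic acid library 1 or 6, or any 1 MYDGF library (adjusted p from 0.0504 to 0.173). Most other genes that fell with aristolochic acid stayed low with MYDGF, among them TM7SF2 (-1.73 ± 0.163 SE, adjusted p = 4.53e-05), HSD17B7 (-1.11 ± 0.109 SE, adjusted p = 5.58e-05) and IDI1 (-1.06 ± 0.234 SE, adjusted p = 0.00453). PMVK, ELOVL6 and INSIG1 had also fallen but were not called against untreated cells (-0.16, -0.15 and -0.51, adjusted p = 0.284, 0.162 and 0.163). For PMVK and INSIG1, every MYDGF library was still below every untreated one.

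The aristolochic acid libraries differed among themselves over the 31 genes. Library 1 was the highest of its group for 20 of them, library 4 for 5 and library 6 for 6. Genes under 50% of their untreated mean numbered 6 in library 1, 12 in library 4 and 11 in library 6, and 4, 2 and 4 in MYDGF libraries 1, 3 and 4. Neither count was made over all genes, so whether these differences are particular to the 31 was not tested. Without aristolochic acid library 1, 16 of the 31 were higher with MYDGF in place of 9, with a median of 0.32, and PMVK, IDI1, TM7SF2, DHCR7, SREBF2, INSIG1 and ACACA were the 7 added. Over all genes the same fit called 3152 higher, in place of 2688. Without MYDGF library 1 the count was 4, and it was 6 without MYDGF library 3, without MYDGF library 4, without aristolochic acid library 4 or without aristolochic acid library 6. Those 5 fits called 1799 to 2157 of all genes higher. The count lower with aristolochic acid moved only between 25 and 26 over the 9 libraries left out in turn.

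Of 8 genes that supply acetyl-CoA and NADPH to both pathways, 7 were lower with aristolochic acid than in untreated cells (median -0.74) and 1 was not called, against 29.3% of all genes called lower. With MYDGF 5 of the 8 were higher than without it (median 0.26), against 14.7% of all genes. The citrate carrier SLC25A1 read 69.8, 65.4 and 90.1 CPM in the untreated libraries, 26.7, 22.5 and 25.4 in those given aristolochic acid and 50.3, 55.0 and 38.9 in the MYDGF group. Its log2 fold changes were -1.60 ± 0.16 (SE, adjusted p = 4.21e-05) and 0.95 ± 0.159 (SE, adjusted p = 0.00336). Cytosolic isocitrate dehydrogenase IDH1 read 191.5, 189.9 and 238.0, then 91.5, 55.6 and 64.6, then 134.6, 148.6 and 123.5 CPM in the same order. IDH1 changed by -1.55 ± 0.176 (SE, adjusted p = 8.52e-05) and 0.94 ± 0.175 (SE, adjusted p = 0.00493). Both genes formed 3 separate groups, with MYDGF in between.

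Counts for other lists of lipid genes follow, to be read against the shares over all genes: 29.3% lower and 29.7% higher with aristolochic acid, and 14.7% in each direction for MYDGF against aristolochic acid. Of 17 tested genes of other fatty acid synthesis, elongation and activation, 6 fell and 1 rose with aristolochic acid (median -0.12), with SCD5, the second stearoyl-CoA desaturase, at -0.87 and ELOVL1, an elongase of very long chains, at 0.31. Of the same 17, 2 were higher and 1 lower with MYDGF, the last being ACACB, the mitochondrial acetyl-CoA carboxylase, at -0.70. Of 9 genes of sterol uptake and movement, 6 fell, led by the lysosomal lipase LIPA (-1.07) and the lipoprotein receptor SCARB1 (-0.87), and none rose. With MYDGF 3 of the 9 were higher, SCARB1 among them (0.52), and 2 were lower, STARD3NL having the larger change (-0.59). Of 5 LXR receptors and targets, which act when sterol is high, 2 fell and 1 rose: the exporters ABCG1 (-2.03) and ABCA1 (-1.30), and the receptor gene NR1H3 (0.80). ABCG1 was the 1 of the 5 that was higher with MYDGF (1.05 ± 0.336 SE, adjusted p = 0.0423). Its mean level was low, at 2.86 CPM untreated, 0.694 with aristolochic acid and 1.44 with MYDGF, so both of its changes rest on few counts.

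Of 12 other sterol sensing and synthesis factors, 3 fell and 2 rose with aristolochic acid (median -0.15). ERG28, a scaffold of the demethylation enzymes, at -0.79, and the SREBP protease MBTPS1 at -0.65 were 2 of those that fell. With MYDGF 1 was higher (ERLIN1, 0.47) and 1 lower (FAF2, -0.41). The non-sterol isoprenoid branches lead from isoprenoid diphosphates to products other than sterols. Of 14 genes of these branches, 7 rose and 3 fell with aristolochic acid (median 0.1). PDSS1 of ubiquinone synthesis was at 1.13, the tRNA transferase TRIT1 at 0.93 and the dolichol kinase DOLK at -2.13. With MYDGF 1 of the 14 was higher and 3 were lower. Of 11 tested genes of glycerolipid and sterol ester synthesis, 4 rose and 4 fell with aristolochic acid, and 1 was lower with MYDGF (GPAT3, -0.93). One of the 4 that rose, AGPAT1, rested on 1 library of its group and read 0.396, 0.252 and 0.303 CPM in the untreated libraries, 0.162, 32.2 and 0.46 in those given aristolochic acid and 36.8, 33.1 and 34.1 in the MYDGF group. AGPAT1 lies in the MHC region, and the labels do not state how reads with several matches were counted, so its value is uncertain.

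The 31 genes are somewhat short, with a median span of 23.8 kb (4.54 to 322 kb) against 33.4 kb over 13704 tested protein-coding genes. Protein-coding genes were split by span into 10 classes of equal size, numbered from the shortest. With aristolochic acid, the class medians of the log2 fold change ran from -0.22 in class 1 to 0.05 in class 8, with -0.1 in class 10. For MYDGF against aristolochic acid, they ran from 0.16 in class 1 to -0.04 in class 6, with 0.01 in class 10. Each member was set against its own class: 28 of the 31 lay below the class median with aristolochic acid, and 26 lay above it for MYDGF against aristolochic acid.

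**Figure D4:**
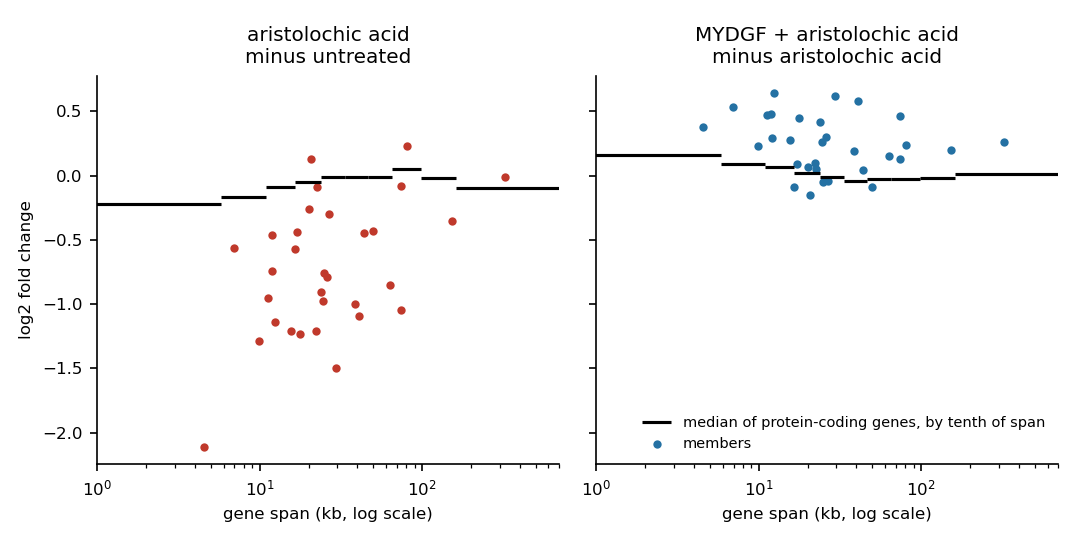
Log2 fold change (y axis) of the 31 genes (points) against the span of the gene (x axis, kb, log scale), for aristolochic acid minus untreated (left) and MYDGF with aristolochic acid minus aristolochic acid (right), with black lines for the median of protein-coding genes in each of 10 span classes. On the left 28 points lie below the line of their class, and on the right 26 lie above it.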

How the data were processed

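RNA-seq of 9 libraries from HK-2 cells was re-analysed from 1 table. The deposited columns headed count hold whole raw counts for each gene and entered every test. FPKM values, made by the authors per the file headers, served only to order genes per length. The submitters' processing notes name HISAT2, SAMtools 1.3.1, CASAVA 1.8, edgeR and mm10, the last a build of the mouse genome. Gene IDs in the table are human, and of 58279 (92.9%) that GENCODE 29 holds, 99.9% overlap its GRCh38 position for that gene; positions are the table's, read as GRCh38. Counting tool, annotation and strand setting were not given in the labels or headers. Per the labels' protocols, 1.3 µg of RNA went into each library.

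Columns were matched to samples by title. Counts were scaled with TMM in edgeR 4.0.16 (R 4.3.3) after filterByExpr (minimum count 10, minimum total 15), and the quasi-likelihood test was run on 1 factor of 3 groups over the 9 libraries (glmQLFit, glmQLFTest; 6 residual degrees of freedom; biological coefficient of variation 16.4%). Adjusted p-values are Benjamini-Hochberg values over 18267 genes, and CPM are TMM-normalized counts per 1e6. Values after ± are SE for log2 fold changes and SD over 3 libraries for levels. Library differences use log2(CPM + 0.5). The 3 comparisons share groups. No 2 libraries of the same group agreed within sampling noise. The test was checked on simulated data: bars on the share of changed genes recovered were not met and were dropped after the runs, and the check then rested on unbiased fold changes and the share of false calls. It missed part of the changed genes, mostly at the smaller simulated fold, so a gene not called may still differ. Alternatives were RLE scaling, library totals, no filter, DESeq2 1.42.0, the 6 libraries compared, the replicate number as a block and each library left out. Spans come from the table, strands from GENCODE 29 and promoters from RefSeq. The members and the lists were chosen with earlier results of these data known. All 31 members are described; from each other list, at most 2 genes per direction and comparison are named, those with the largest log2 fold change among the called genes. AGPAT1 is named by that rule. Figures were drawn with matplotlib 3.10.9.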

Additional observations from a re-analysis of the deposited data

How the results depend on the processing

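The counts per comparison kept their direction in every setting that gave a call. With aristolochic acid against untreated cells, 25 members were lower, 25 to 26 with a library left out and 22 with the replicate block, and the 1 higher gene was 1 in every fit with a library left out and 0 with the block. For MYDGF against aristolochic acid, the 9 higher members became 4 to 16 with a library left out and the median of 0.24 became 0.17 to 0.32. Against untreated cells, the 21 lower members became 17 to 21, the 1 higher gene 1 to 2 (2 also in the fit to the 6 libraries compared), and the median of -0.49 became -0.57 to -0.44. With the replicate number as a block, 0 members were higher with MYDGF, where 8 of all genes were higher and 6 lower, against 2688 and 2691 without it; 15 members were lower than untreated. The block also leaves fewer residual degrees of freedom than the 6 of the main fit. Deviations of same-numbered libraries correlated at -0.165 and 0.014 between the treated groups, -0.00951 between untreated and aristolochic acid, and 0.0183 and 0.0114 between untreated and MYDGF. Libraries of different number correlated at -0.141 to 0.181 between the treated groups. Such weak correlations cannot settle whether the numbers pair the libraries. DESeq2 moved the median of all genes from -0.01 to 0.12 with aristolochic acid and from 0.01 to -0.1 for MYDGF, and no member's call changed there.

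Changes of sign were seen in genes without a call. With aristolochic acid, ACACA (-0.01) read 0.03 with RLE scaling, 0.02 with library totals, DESeq2 and the 6 libraries, 0.03 with the block and -0.1 to 0.08 with a library left out, and with the block SC5D read -0.02 and INSIG2 0.17. For MYDGF against aristolochic acid, with a library left out FDFT1 read -0.04 to 0.09 and SC5D -0.44 to 0.01, and INSIG2 -0.04 with the block. Against untreated cells, INSIG2 read 0.14 with the block, and with a library left out INSIG2 read -0.2 to 0.05, EBP -0.24 to 0.15 and SC5D -0.29 to 0.15. The cause of these changes was not tested. LSS, at 7.96 to 20.3 CPM, and HSD17B7, at 8.91 to 22.4 CPM, rest on the fewest counts of the members. In the aristolochic acid libraries TM7SF2 was similarly low, with 147, 104 and 93 counts beside 110, 129 and 98 for HSD17B7.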
